A study of Mus musculus with 2 samples.

Results

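The 10 genes described here encode the structural proteins of intestinal microvilli and of the brush border, the carpet of microvilli on the apical face of absorptive cells. They were taken by name from the gene tables, and all 10 of the 10 names matched 1 gene each among 43346 genes. The tables come from total RNA of whole intestine from embryos of mouse strain B6NCrl, aged 14.5 days, sequenced as 2 libraries that form the only group. Per the labels, each library is the intestine of 1 pup (replicate 1 collected on day 17 and replicate 2 on day 15 of the same month), no treatment or mutation is given, and the sex is given as both sexes pooled, which is at odds with 1 pup. Both are labelled biological replicates and carry 1 donor record. With 1 group the data hold no contrast between conditions, so the levels, the transcripts used and the spread between the 2 embryos are described without a test.

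A microvillus is a finger of plasma membrane around a bundle of parallel actin filaments. Villin, espin, fimbrin (plastin 1) and Eps8 bundle or cap the filaments, ezrin ties them to the membrane, and myosin 1a forms lateral bridges between core and membrane. At the tips, the protocadherins Cdhr2 and Cdhr5 join neighbouring microvilli and are held by a complex of Ush1c (harmonin), Anks4b, Calml4 and the motor myosin 7b. In mice the flat gut epithelium is remodelled into villi around this stage.

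For 4 of the 10 genes the files list several transcripts with sizeable shares or with known alternative forms, and for 3 of these genes sequences that bear on the forms are shown first. Exons and coding sequence come from GENCODE transcripts of the mm10 assembly. In Cdhr5 the longer transcript (ENSMUST00000167263.3) holds an exon of 486 bases (162 codons) at chr7:141271517-141272002, minus strand, that the shorter one (ENSMUST00000080654.5) skips. It encodes the mucin-like repeats of the protein. The last 300 bases of the exon, chr7:141271517-141271816, are shown, and capitals mark a 14-base stretch that occurs 3 times at a spacing of 93 bases (31 codons).
Cdhr5 repeat exon: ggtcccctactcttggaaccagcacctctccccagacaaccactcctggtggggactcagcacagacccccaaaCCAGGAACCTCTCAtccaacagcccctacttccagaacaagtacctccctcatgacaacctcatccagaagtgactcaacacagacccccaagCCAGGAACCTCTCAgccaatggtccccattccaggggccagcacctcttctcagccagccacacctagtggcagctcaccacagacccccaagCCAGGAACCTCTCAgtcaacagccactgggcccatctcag
Over the whole exon a base equalled the base 93 positions further on at 51.4% of positions, the highest share of all distances tried, with 186 bases second.

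Ush1c is known for a short form made in the intestine and a long form made in the inner ear. The short-form transcript (ENSMUST00000078680.8) holds an exon of 62 bases at chr7:46216018-46216079, minus strand. The long-form transcript (ENSMUST00000009667.7) lacks it and has 7 exons that the short form lacks, the first of them 50 bases long at chr7:46214931-46214980. Both exons are shown because reads over them tell the forms apart.
Ush1c short-form exon: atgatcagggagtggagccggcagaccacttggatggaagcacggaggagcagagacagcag
Ush1c long-form exon: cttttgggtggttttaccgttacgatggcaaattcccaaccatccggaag

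Espn has several annotated starts along the gene, and the transcripts from the long-form start (ENSMUST00000030785.10, 871 residues), the short-form start (ENSMUST00000105653.3, 285 residues) and the last start (ENSMUST00000049305.9, 253 residues) share the last 501 bases of their coding sequence. The final 240 bases of it are shown, since they belong to the actin-bundling end that all 3 proteins keep. Capitals mark the last codon before the stop.
Espn shared coding end: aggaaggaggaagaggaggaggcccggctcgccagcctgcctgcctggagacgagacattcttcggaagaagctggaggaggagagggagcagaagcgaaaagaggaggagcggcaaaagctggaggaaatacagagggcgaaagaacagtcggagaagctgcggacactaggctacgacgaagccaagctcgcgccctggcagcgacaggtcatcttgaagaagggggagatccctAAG
RefSeq promoter windows on GRCm38.p6 were available for 3 Espn starts. The windows of the last start (chr4:152128876-152129175, minus strand) and of a middle start with no assigned reads (chr4:152136276-152136575, minus strand) are given, with capitals from the annotated start on.
Espn last start: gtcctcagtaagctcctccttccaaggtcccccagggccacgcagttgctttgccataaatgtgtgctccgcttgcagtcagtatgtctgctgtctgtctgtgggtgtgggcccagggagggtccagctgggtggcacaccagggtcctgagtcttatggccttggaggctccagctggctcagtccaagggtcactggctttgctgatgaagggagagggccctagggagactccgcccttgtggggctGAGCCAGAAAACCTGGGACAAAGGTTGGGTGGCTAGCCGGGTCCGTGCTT
Espn middle start: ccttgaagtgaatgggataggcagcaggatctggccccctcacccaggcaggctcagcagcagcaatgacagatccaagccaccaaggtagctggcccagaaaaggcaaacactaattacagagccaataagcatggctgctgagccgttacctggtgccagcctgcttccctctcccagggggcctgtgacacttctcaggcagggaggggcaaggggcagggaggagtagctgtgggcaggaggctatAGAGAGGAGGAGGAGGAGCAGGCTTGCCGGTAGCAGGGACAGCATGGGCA

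All 10 genes were detected, which means at a TPM of at least 1 in both libraries, and all 10 also reached 5 TPM in both. TPM gives the share of all transcripts in a library that come from a gene and corrects for gene length, so levels of different genes can be set side by side. Among all protein-coding genes 61.3% reached 1 TPM in both libraries and 48.8% reached 5. Their median was 21.1 TPM in replicate 1 and 21.6 TPM in replicate 2, beside 18.8 and 18.0 TPM for the 13173 detected protein-coding genes. Together they held 320.0 and 350.4 TPM, or 0.0355% and 0.0391% of the TPM of all genes, from 21734 and 24050 estimated counts.

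Ezr, which encodes ezrin, the linker between actin and the membrane (ENSMUSG00000052397.8, chromosome 17, 6738041 to 6782784), had 125 TPM in replicate 1 and 137 TPM in replicate 2. Its mean of 131 ± 8.86 TPM (SD, n = 2) was above that of 91.9% of detected protein-coding genes. Ezrin is also made by mesothelial cells, and all 7 mesothelial markers were detected, with a median of 24.5 TPM in replicate 1 and 21.6 TPM in replicate 2. How much of the Ezr signal came from such cells was not tested.

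Among the proteins of the actin core, Vil1 (chromosome 1, 74409376 to 74435559), which encodes villin, the actin bundler that is a classical marker of gut epithelium, had 45.8 and 50.6 TPM in replicates 1 and 2. Eps8 (chromosome 6, 137477245 to 137654876), whose product caps and bundles filaments at the microvillus tip, had 36.9 TPM in replicate 1 and 43.7 TPM in replicate 2. Both stood above the other core genes in each library. Pls1 (chromosome 9, 95752642 to 95845311), which encodes fimbrin, had 20.2 and 20.7 TPM. Espn (chromosome 4, 152120331 to 152152371), which encodes espin, had 18.1 TPM in replicate 1 and 19.0 TPM in replicate 2. Vil1 was thus 2.26 and 2.45 times as high as Pls1 and 2.54 and 2.67 times as high as Espn in replicates 1 and 2. With all transcripts counted, the proportions among these bundlers therefore differed little between the embryos. The Espn level rests in part on a noncoding transcript model described further on, Espn-215. Without it Espn was at 12.9 and 17.9 TPM, so its proportion to Vil1 is less certain.

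The tip adhesion genes differed more in ratio than the core genes, though over a smaller span in TPM. Ush1c (chromosome 7, 46195350 to 46238503), which encodes the scaffold harmonin, had 28.8 TPM in each library from 1284 and 1285 counts. Cdhr5 (chromosome 7, 141269083 to 141276786) had 22.0 TPM in replicate 1 and 22.5 TPM in replicate 2, while its adhesion partner Cdhr2 (chromosome 13, 54701461 to 54736662) had 7.01 and 9.24 TPM. The ratio of Cdhr5 to Cdhr2 was 3.14 in replicate 1 and 2.44 in replicate 2. The motors were low beside the scaffold. Myo7b (chromosome 18, 31959234 to 32036961), the motor of the tip complex, had 7.65 TPM in replicate 1 and 8.23 TPM in replicate 2, and Myo1a (chromosome 10, 127705170 to 127720940), the bridge motor, had 8.57 and 10.2 TPM. The lowest estimated count among the 10 genes was 579, for Espn in replicate 1, and the other 9 genes had 654 or more in each library. Of the 10 genes 3 share exon bases with a gene on the opposite strand, Vil1 with Usp37 over 49 bases, Ezr with Sytl3 over 4 bases and Ush1c with Gm9860 over 120 bases, and whether strand was used in counting is not given in the sources used here.

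**Figure D1:**
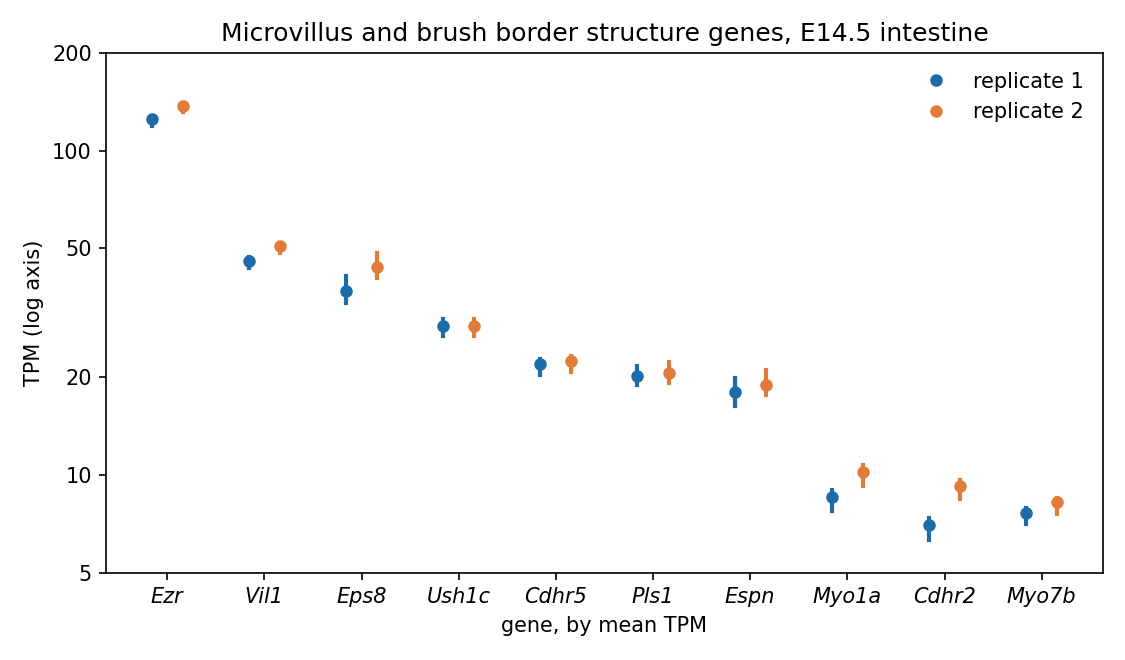
TPM of each gene in each library on a log axis, in order of mean level. Points are the deposited TPM and bars the deposited 95% intervals of replicate 1 (blue) and replicate 2 (orange). Ezr stood apart at 131 TPM on average, and Myo1a, Cdhr2 and Myo7b lay together below 11 TPM.

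By mean TPM the order was Ezr, Vil1, Eps8, Ush1c, Cdhr5, Pls1, Espn, Myo1a, Cdhr2 and Myo7b. Of the 9 neighbouring pairs in this order, 2 had overlapping ranges over the libraries, Myo1a with Cdhr2 and Cdhr2 with Myo7b. Cdhr2 was therefore not separated from Myo1a or from Myo7b, while the ranges of Myo1a and Myo7b were apart. The deposited 95% intervals of Myo1a and Myo7b still overlapped in replicate 1, at 7.74 to 9.01 and 7.05 to 7.90 TPM. In the order Myo1a, Cdhr2 and Myo7b, the means were 9.39 ± 1.17, 8.12 ± 1.58 and 7.94 ± 0.410 TPM (SD, n = 2). The deposited 95% intervals also overlapped within each library between Cdhr5 and Pls1 and between Pls1 and Espn, so the order among these is uncertain although their ranges were apart. Those of Vil1 and Eps8 overlapped in replicate 2, at 48.2 to 51.8 and 40.4 to 48.4 TPM. The place of Eps8 also rests on a 622-base transcript model described further on, without which its mean was 26.1 TPM and its rank 4.

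Because whole gut wall was used, fewer epithelial cells and less RNA per epithelial cell cannot be told apart. All 12 pan-epithelial markers were detected, led by Epcam, Spint2 and Krt8, and their median was 100.3 TPM in replicate 1 and 115 TPM in replicate 2. Ezr stood at 1.25 and 1.19 times that median, Vil1 at 0.457 and 0.439 times and Myo7b at 0.0763 and 0.0714 times. All 10 intestinal transcription factors listed were detected as well, with medians of 24.1 and 29.8 TPM and with Elf3, Klf5 and Hnf4a as the highest.

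Both listed partners of the tip complex were present at unlike levels. Calml4, the light chain of myosin 7b, had 74.0 TPM in replicate 1 and 77.8 TPM in replicate 2, and the scaffold gene Anks4b had 6.40 and 6.68 TPM. Calml4 was 11.6 times as high as Anks4b in each library, and Anks4b was below Myo7b and Cdhr2 in each library. In replicate 1, however, the deposited intervals of Anks4b and Cdhr2 overlapped, at 5.56 to 7.00 and 6.32 to 7.37 TPM. Among 11 genes of microvillus assembly and scaffolding, 9 were detected, with the cytoskeletal actins Actb at 6355 and 5690 TPM and Actg1 at 2390 and 2198 TPM, and the ezrin-binding scaffold gene Slc9a3r1 at 124 and 129 TPM. Those not detected were the scaffold gene Pdzk1, at 0.99 and 0.82 TPM, and the adhesion gene Tmigd1, at 0.34 and 0.20 TPM, named after their values were seen. The deposited intervals of Pdzk1, 0.919 to 1.95 and 0.767 to 1.89 TPM, span the threshold of 1 TPM. Pdzk1 also shares 1333 exon bases with Gpr89 on the opposite strand, which had 33.34 and 35.18 TPM, so its level is uncertain. All 11 genes of apical trafficking and polarity were detected, led by Cdc42, Rab11a and Rab8a, and so were all 7 genes of the terminal web, the actin and intermediate filament mesh below the microvilli, led by Krt19, Sptbn1 and Sptan1.

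The enzymes that microvilli carry in the mature gut were detected in part, at 6 of 12 genes. The peptidase genes Dpp4, Anpep and Enpep had 52.4, 50.8 and 32.1 TPM in replicate 1 and 52.8, 54.9 and 31.5 TPM in replicate 2. Dpp4 and Anpep were thus above Vil1 in each library, but in replicate 2 their deposited intervals overlapped that of Vil1. These were 48.0 to 56.5 TPM for Dpp4, 51.0 to 57.5 TPM for Anpep and 48.2 to 51.8 TPM for Vil1. Enpep was below Eps8 in each library, but above it when the 622-base Eps8 transcript model is left out, which puts Eps8 at 25.2 and 27.0 TPM. Which cells of the gut wall these peptidase transcripts came from was not tested. The sucrase-isomaltase gene Sis, the trehalase gene Treh and the enteropeptidase gene Tmprss15, named after their values were seen, had 0 counts in both libraries. The deposited upper bounds for them were 0.266 TPM for Sis, 0.283 TPM for Treh and 0.0528 TPM for Tmprss15 in replicate 1, and 0.262, 0.279 and 0.0519 TPM in replicate 2. Taken as 3 counts, the limit that a count of 0 allows was 0.0387 TPM for Sis, 0.0824 TPM for Treh and 0.0337 TPM for Tmprss15 in replicate 1, and 0.0382, 0.0815 and 0.0333 TPM for the same genes in replicate 2. With a threshold of 0.5 TPM, 8 of the 12 hydrolase genes would count as detected.

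Several relatives of the 10 genes were higher than the brush border gene itself in these whole-wall libraries. Among plastins, Pls3 had 65.5 TPM in replicate 1 and 55.6 TPM in replicate 2, and the leukocyte plastin gene Lcp1 had 48.1 and 45.4 TPM, which was 3.24 and 2.69 times and 2.38 and 2.20 times the level of Pls1. The unrelated bundler gene Fscn1, which encodes fascin, had 193 and 177 TPM. Lcp1 is known from leukocytes, and all 7 leukocyte markers were detected with medians of 28.6 TPM in replicate 1 and 30.9 TPM in replicate 2. How much of the Lcp1 signal came from such cells was not tested. Among the ezrin relatives, by contrast, Ezr led, at 1.52 and 1.98 times the level of the radixin gene Rdx and 1.80 and 2.18 times that of the moesin gene Msn. Rdx was at 82.3 and 69.3 TPM, Msn at 69.3 and 62.9 TPM and the related tumour suppressor gene Nf2 34.3 and 32.8 TPM.

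Of 7 villin and gelsolin relatives 6 were detected. Gsn, which encodes the filament-severing protein gelsolin, had 151 TPM in replicate 1 and 145 TPM in replicate 2, and Svil and Flii had 76.7 and 72.9 TPM in replicate 1 and 71.7 and 68.9 TPM in replicate 2, all above Vil1. Capg, Vill and Scin were below Vil1, at 29.9, 20.6 and 18.2 TPM in replicate 1 and 28.7, 21.3 and 20.6 TPM in replicate 2, and Avil was at 0.17 TPM in each. The espin relative Espnl had 0 counts in both, which allows up to 0.0318 and 0.0314 TPM at 3 counts, with deposited upper bounds of 0.0566 and 0.0558 TPM.

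Of the Eps8 relatives, Eps8l3 had 52.7 TPM in replicate 1 and 64.2 TPM in replicate 2 and was above Eps8 in each, with deposited intervals apart. Eps8l2 had 35.6 and 44.5 TPM, within the deposited interval of Eps8 in each library, and was above Eps8 without its 622-base model. Eps8l3 shares 964 exon bases with 4933431E20Rik on the opposite strand, which had 7.52 and 7.10 TPM, so its level is less certain. Eps8l2 shares 1729 with B230206H07Rik, which was below 0.1 TPM in each library. Eps8l1 was low, at 3.32 and 1.49 TPM. All 6 class 1 myosin relatives listed were detected, and Myo1a ranked below Myo1d at 35.1 and 38.3 TPM, Myo1c at 33.5 and 32.6 TPM and Myo1e at 11.9 TPM in each library. It ranked above Myo1h at 3.18 and 3.0 TPM, Myo1f at 2.69 and 2.44 TPM and Myo1g at 1.00 and 1.03 TPM. Myo1h shares 1530 exon bases with Kctd10 on the opposite strand, so its level is uncertain.

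**Figure D2:**
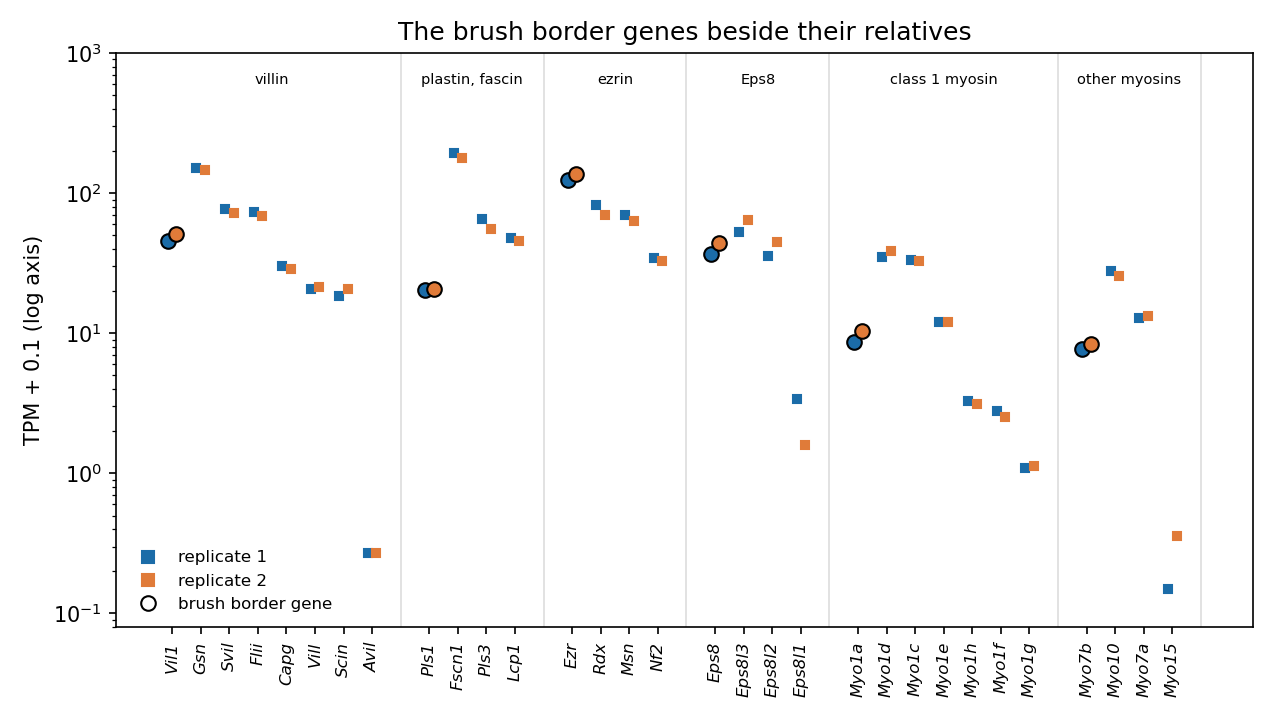
TPM plus 0.1 on a log axis for 6 of the brush border genes (large circles) and their relatives (squares) in replicate 1 (blue) and replicate 2 (orange). Ezr was the highest of its family, whereas Vil1, Pls1, Myo1a and Myo7b were below several of the genes plotted beside them. Eps8 was below Eps8l3. Fscn1 is plotted with Pls1 although it is unrelated.

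Stereocilia of the inner ear are built with counterparts of the tip complex. Of 7 such Usher and tip-link genes 3 were detected, Cib2 at 15.2 TPM in replicate 1 and 12.0 TPM in replicate 2, Whrn at 3.15 and 2.44 TPM and the protocadherin gene Pcdh15 at 1.41 and 2.00 TPM. Adgrv1, Cdh23, Pdzd7 and Ush1g were each below 1 TPM in both libraries. The deposited intervals span 1 TPM in replicates 1 and 2 for Adgrv1, at 0.752 to 1.66 and 0.663 to 1.52 TPM. They also do so for Cdh23, at 0.543 to 1.51 and 0.712 to 1.63 TPM. Myo7a, the stereocilium counterpart of Myo7b, had 12.8 and 13.3 TPM and so exceeded Myo7b in each library. Myo10, which encodes a filopodial motor, had 27.9 and 25.4 TPM and Myo15 0.05 and 0.26 TPM. Among further cadherin-related genes, Cdhr1 and Cdhr3 stayed below 1 TPM, with 0.19 and 0.37 TPM for Cdhr1 and 0.02 and 0 TPM for Cdhr3. Cdhr4 had 21.7 TPM in replicate 1 and 12.4 TPM in replicate 2, but it shares 570 and 889 exon bases with 2 annotated genes on the same strand, so this level is uncertain.

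At the transcript level, 7 of the 10 genes had 1 transcript with at least 90% of the gene's TPM in both libraries. Myo1a, Myo7b and Cdhr2 have a single transcript in the files. In replicates 1 and 2 the main transcript held 98.9% and 99.2% of Vil1, 98.9% and 99.3% of Ezr, and 97.3% and 95.2% of Pls1.

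The short form of Ush1c, with the 62-base exon shown above, held 94.6% of Ush1c in replicate 1 and 93.1% in replicate 2. The 3 transcripts with the 483-base exon of the long form together held 1.91% and 2.14%, all of it from 1 of them with 38.0 and 43.0 estimated counts. The short form, which codes for 548 residues against 910 for the long one, was thus the main form in both embryos. The long form was low but had assigned counts, at 0.55 TPM in replicate 1 and 0.62 TPM in replicate 2, with deposited intervals of 0.0535 to 0.644 TPM and 0.137 to 0.758 TPM.

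Cdhr5 was split almost evenly and alike in both embryos. The form without the repeat exon (669 residues) held 55.6% and 55.1%, and the form with it (831 residues) held 44.4% and 44.9%. In TPM these were 12.2 and 9.78 in replicate 1 and 12.4 and 10.1 in replicate 2, from 575 to 601 estimated counts each. Their deposited 95% intervals overlapped in each library, for example at 10.1 to 14.1 TPM without the repeat exon and 8.28 to 11.5 TPM with it in replicate 2, so neither form can be called the higher one.

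Espn was read mostly from the short-form start. Each transcript was grouped with the nearest of the starts named here, so transcripts of a group need not begin at the same base. The 6 transcripts of the short-form start held 77.1% of Espn in replicate 1 and 75.5% in replicate 2. The last start held 11.3% and 12.9% and the long-form start 11.6% in each. The 8 transcripts of the middle start were listed at 0 TPM in both libraries, although posterior mean shares gave them 3.07% and 3.03%. The split within the short-form start was less steady. The 285-residue form, Espn-207, had 43.7% in replicate 1 and 64.2% in replicate 2, and Espn-215, an 882-base model without an annotated coding sequence, had 28.6% and 5.65%. Their deposited intervals overlapped between the libraries, at 5.53 to 9.35 TPM in replicate 1 and 9.29 to 13.0 TPM in replicate 2 for Espn-207 and at 2.54 to 6.83 TPM and 0.0782 to 2.70 TPM for Espn-215. The share per start was therefore close in the 2 embryos while the share per transcript was not resolved.

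Eps8 was divided among 3 starts whose transcripts differ in noncoding first exons. A transcript from the upstream start (ENSMUST00000058210.8) held 38.6% and 41.4% of Eps8 in replicates 1 and 2, and one from the downstream start (ENSMUST00000100841.4) 27.2% and 18.3%, and both code for the same 821 residues. A 622-base model from a middle start without an annotated end of its coding sequence (ENSMUST00000146442.1) held 31.7% and 38.1% of the TPM but 5.48% and 7.09% of the counts, because TPM divides by length. Without this model the Eps8 level was 25.2 TPM in replicate 1 and 27.0 TPM in replicate 2, a mean of 26.1 ± 1.28 TPM (SD, n = 2) that would place Eps8 below Ush1c. Without Espn-215, Espn was at 12.9 and 17.9 TPM and kept its place at rank 7. Both of these values were added after the shares were seen.

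**Figure D3:**
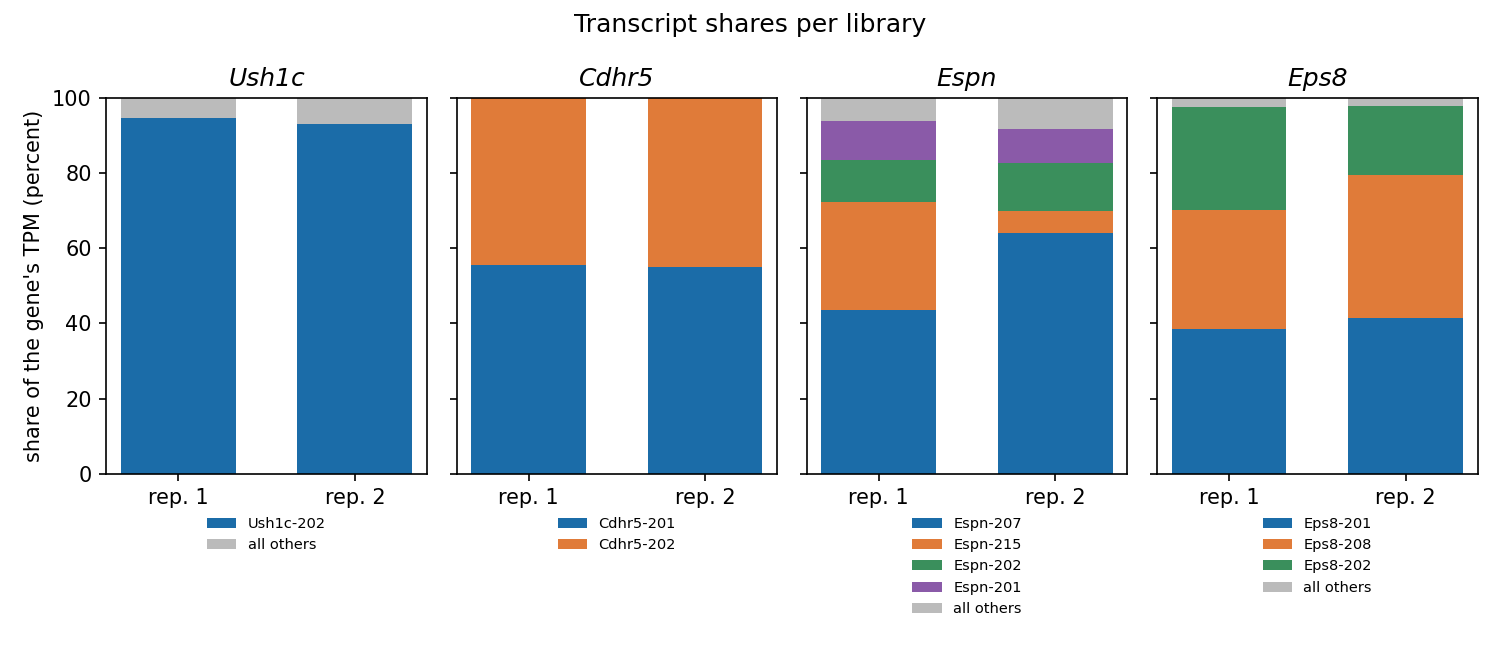
Share of each gene's TPM (percent) held by its transcripts in replicate 1 and replicate 2, with transcripts of at least 10% in either library in colour and all others in grey. Ush1c was nearly all the short form, Cdhr5 was split at 55.6% and 44.4% in replicate 1, and the Espn-207 and Espn-215 shares moved against each other between the libraries.

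**Figure D4:**
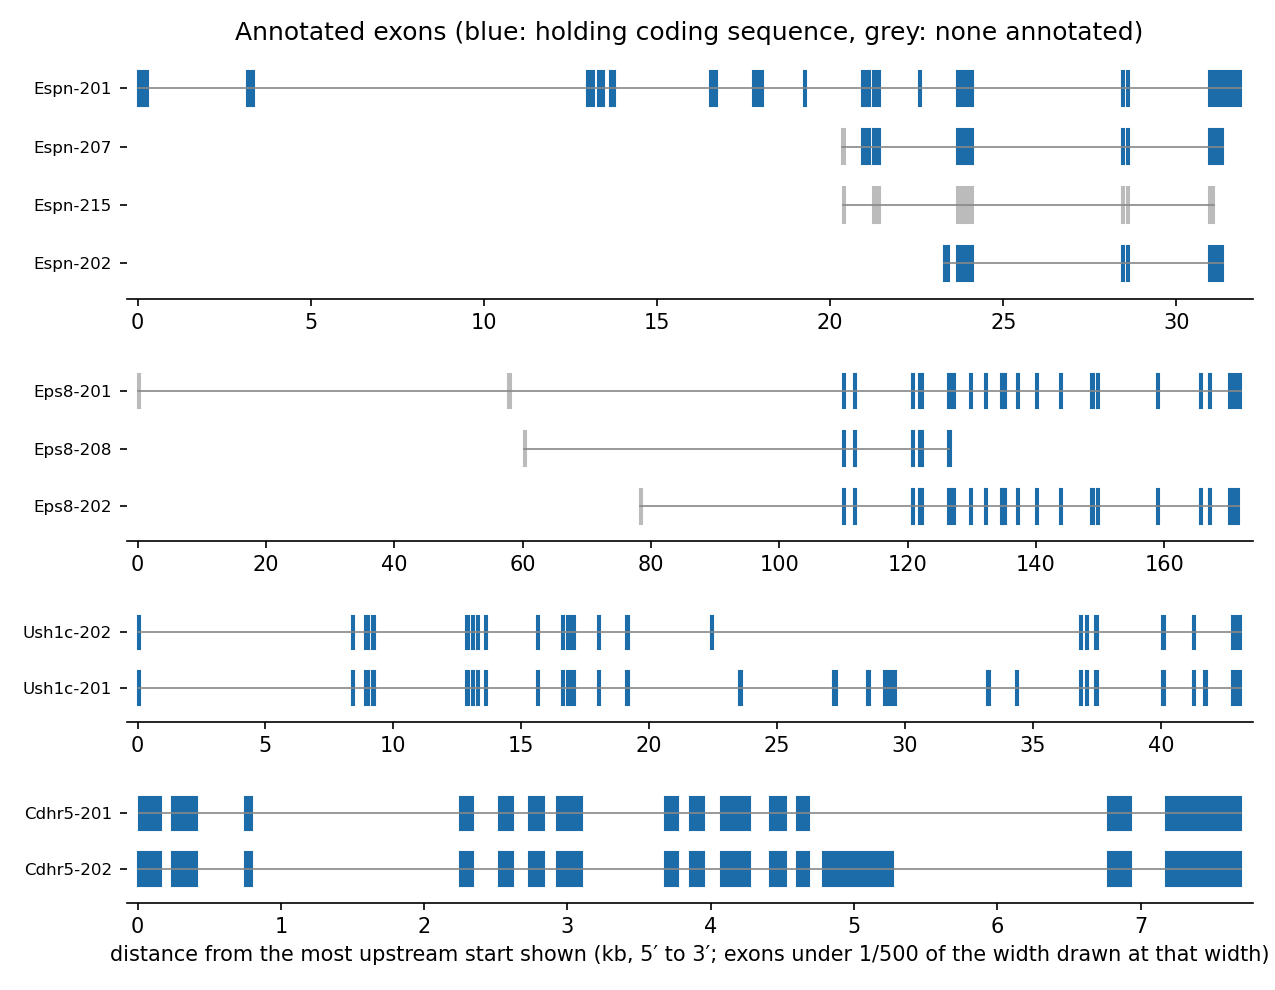
Annotated exons of the main transcripts of Espn, Eps8, Ush1c and Cdhr5, by distance in kb from the most upstream start shown, with exons that hold coding sequence in blue and others in grey. In Cdhr5 the longer form has 1 exon more, in Ush1c the long form has 7 exons that the short form lacks, and the short form of Espn begins well downstream of the long one.

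Between the embryos, 0 of the 10 genes differed by the size rule, which asks for a mean of at least 5 TPM, a difference of at least 1 in log2(TPM + 1) and deposited 95% intervals that do not overlap. Of all 11324 genes with a mean of at least 5 TPM 0.495% did, so a count of 0 among 10 is near the background. The differences of the 10 genes, replicate 1 minus replicate 2 on the log2(TPM + 1) scale, ran from -0.35 for Cdhr2 to 0.00 for Ush1c with a median of -0.12. The robust SD of this difference was 0.165 for genes with a mean of 5 to 50 TPM and 0.120 for those at 50 TPM or more. All 10 genes lay within the limits that hold 95% of the genes of their level, 0.41 and 0.26.

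The direction was alike, with 9 of the 10 genes lower in replicate 1 and Ush1c equal, where 37.2% of genes with a mean of at least 5 TPM were lower in replicate 1. All 10 were lower with TMM factors, DESeq2 size factors or TPM rescaled over nuclear protein-coding genes, beside 49.5%, 46.7% and 39.7% of those genes. With spike-in scaling, which shifts replicate 1 up by 0.10 for every gene, 6 of the 10 were lower, beside 18.4%. The median log2 difference over all genes at that level was 0.05 as deposited. In 4 of the 10 genes, Ezr, Vil1, Myo1a and Cdhr2, the deposited intervals did not overlap between libraries, and all 4 were lower in replicate 1. That was so in either direction for 25.2% of genes and with lower values in replicate 1 for 7.23%. Cdhr2 differed most, at 6.32 to 7.37 TPM in replicate 1 and 8.46 to 9.66 TPM in replicate 2, and 92.6% of genes of its level had a smaller difference.

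Other lists differed in direction. The median log2 difference was -0.10 over the 12 pan-epithelial markers, of which 9 were lower in replicate 1, and -0.23 over the 10 intestinal transcription factors, of which all 10 were lower. It was -0.06 over the 2 partners of the tip complex, both lower, and -0.05 over the 7 terminal web genes, of which 5 were lower. It was 0.00 over the 12 hydrolase genes, 0.13 over the 11 genes of assembly and scaffolding and 0.02 over the 11 trafficking genes, with 4 genes lower in replicate 1 in each of these 3 lists. Of the hydrolase genes 5 were higher in replicate 1. Sis, Treh and Tmprss15, with 0 counts in both libraries, entered the hydrolase median at 0.00. The largest hydrolase differences were -0.86 for Alpi and -0.75 for Ggt1, named after their values were seen, with deposited intervals apart. The assembly and trafficking lists hold genes that all cells use, such as Actb and Cdc42. The smooth muscle and mesenchyme lists had medians of 0.11 and 0.14. All 15 pancreas markers were lower in replicate 1, with a summed level of 9.08 TPM in replicate 1, where 6 of them had 0 counts, and 1176 TPM in replicate 2, where all 15 had counts. The 10 that differed by the size rule were Pnliprp1, Ctrb1, Ins2, Cpa1, Amy2a5, Cel, Cela1, Ins1, Gcg and Prss2. Globin and other erythroid markers were lower in replicate 1 for 6 of 6 genes. The part of these in the differences of the 10 genes was not tested.

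**Figure D5:**
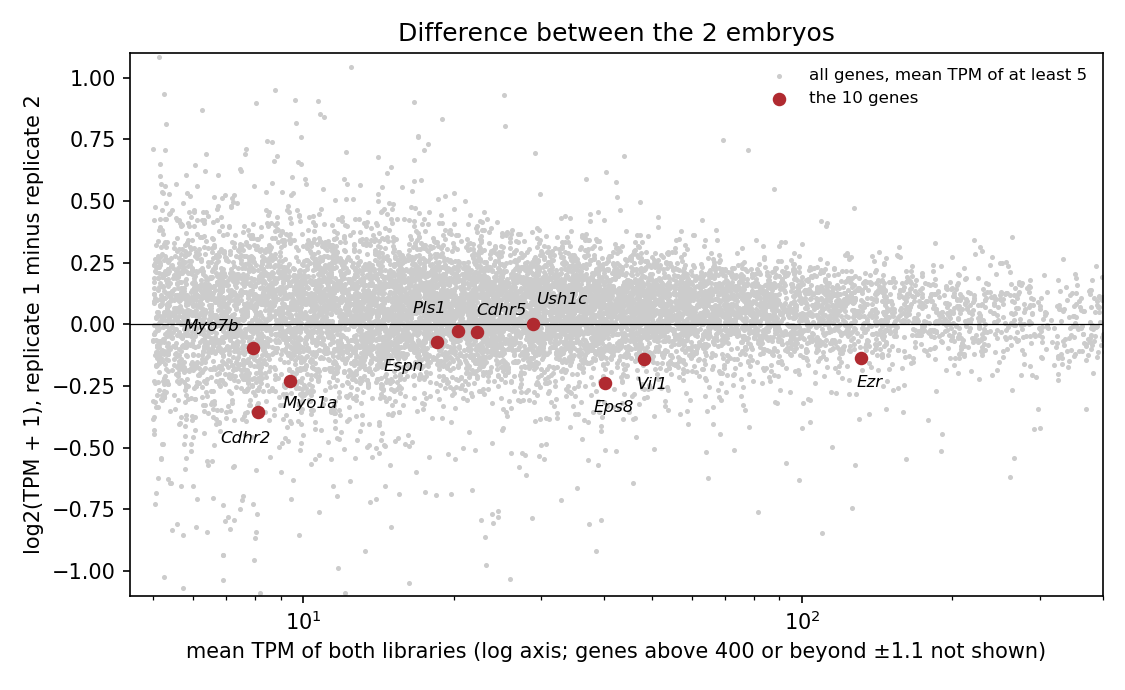
Difference in log2(TPM + 1), replicate 1 minus replicate 2, against the mean TPM on a log axis for genes with a mean of at least 5 TPM that lie within the axes (grey) and the 10 brush border genes (red). The 10 genes lie at or below 0 and inside the cloud of other genes, with Cdhr2 lowest at -0.35.

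The libraries had 34504419 and 34042802 estimated counts in all features for replicates 1 and 2, of which 32938592 and 32371363 were in genes, and spike-in RNA took 9.77% and 10.4% of TPM. Set against each other over 17781 genes, the libraries gave a chi-square value of 15.3 for each degree of freedom, more than counting noise, so they were not treated as 1 library deposited in duplicate. That value does not bear on whether they came from separate embryos, for which the labels are the only source. Markers of kidney tubule, another tissue with a brush border, were detected at 1 of 7 genes, which was Cubn, at 5.53 and 4.10 TPM. The other genes of this list were named after their values were seen. Lrp2 had 0.97 and 1.24 TPM from 256 and 388 counts, and its deposited interval in replicate 1, 0.842 to 1.54 TPM, spans the threshold. Pax8 had 0.36 and 0.17 TPM and Pax2 0.04 and 0.01 TPM. Slc34a1, Slc22a6 and Umod had 0 counts in both libraries. Which cells the Cubn and Lrp2 transcripts came from was not tested.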

How the data were processed

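Input was 10 ng of total RNA per library (2 libraries), with a size range above 200 nucleotides, and it was quantified by the authors per library against mm10 with GENCODE M4, per the notes deposited with the files. The quantifier, and whether strand was used, is not given in the sources used here. The authors deposited expected counts, TPM and FPKM per gene and transcript, TPM being over all features, including 96 spike-ins. The deposited percent share of each transcript in its gene was used as given. Interval bounds of TPM were deposited as well and are taken as scores. As their centre is the posterior mean, a TPM can lie outside its bounds.

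Symbols, coordinates and exons came from GENCODE M21 on the same assembly, and 42462 of 43346 gene identifiers matched. The 187 list genes, the 10 genes among them, were chosen with earlier results of these data known. Named were the 10 genes, their listed relatives and partners, the Usher and tip-link genes (some genes are not reported here), the 3 highest genes of other lists with any that differed by the size rule, and transcripts at 10% or more. The 3 highest were not printed for every marker list, and genes named outside the rule are marked so. The ± values are SDs of 2 libraries, which measure only the spread between these samples, and floors of 3 counts cover counting error only. Scaling factors came from edgeR 4.0.16 (TMM) and DESeq2 1.42.0 on expected counts rounded to whole numbers. Calling and scaling were tested on simulated data. The simulated counts for scaling held counting noise only, unlike these libraries, so they do not show how scaling performs here. Alternatives were posterior mean TPM, FPKM, TPM over nuclear protein-coding genes, spike-in scaling, a pseudocount of 0.1, other thresholds, other epithelial denominators and leaving out each library.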

Additional observations from a re-analysis of the deposited data

How the results depend on the processing

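All 10 genes were detected under each alternative tried (0.5 TPM, 5 TPM, 10 estimated counts, posterior mean TPM and either library alone), and 0 of 10 differed between the libraries with no minimum level, with a size of 0.5 or by posterior mean TPM. The median level of 21.4 TPM became 28.0 when TPM was rescaled over nuclear protein-coding genes and 14.6 in FPKM, both by the change of unit total. Over leaving out each library it ranged from 21.1 to 21.6. The order by level kept all 10 ranks by posterior mean TPM and 8 of 10 in replicate 1 alone, where Myo7b exceeded Cdhr2. The median of the 10 genes relative to the epithelial median was 0.199, with 0.187 to 0.211 in single libraries, 0.186 against Cdh1 and 0.0418 against Epcam, which is the highest of those markers. The median log2 difference of -0.12 ranged from -0.16 with TMM factors to -0.02 with spike-in scaling, which shifts replicate 1 by 0.10 relative to replicate 2. No paired analysis was possible because there is 1 group. Transcript shares of Espn and Eps8 rest on models that share most exons, and the authors' intervals, not depth alone, limit them.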
